A study of Homo sapiens with 6 samples.

Results

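Chemokines and their receptors were examined in the MV4-11 cell line, which was established from a human monocytic acute leukaemia, with and without knockdown of the gene for the glycolytic enzyme enolase 1, ENO1. The genes were chosen by name: protein-coding genes whose symbol starts with CCL, CXCL, CCR, CXCR, XCL, CX3CL or CX3CR followed by a number, together with ACKR3. By this rule 37 of the 23227 genes in the count table belonged to the family, 22 of them ligands and 15 receptors. A further 24 family genes, among them CXCL12 and CX3CL1, were not analysed here. The control group held 3 libraries of cells labelled as wild type and untreated, with the letters NC in their titles. The knockdown group held 3 libraries of cells also labelled as wild type, with 1 hairpin against ENO1, named sh2 in the column headers. Whether the controls carried a hairpin is not said in the labels. Separate cultures are not named there either, and the spread behind each p-value may therefore be technical.

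Chemokines are small secreted proteins that set the direction in which leukocytes move. They are held on the glycosaminoglycans of surfaces and matrix and are read by G protein-coupled receptors on the moving cell, mostly through G proteins of the Gi class. Inflammatory chemokines such as CCL2, CXCL8 and CXCL10 are induced through NF-kB, AP-1 and interferon-activated factors, whereas CXCL12 and its receptor CXCR4 serve the homing and retention of blood-forming and leukaemic cells in bone marrow. Monocytes characteristically carry CCR1, CCR2 and CX3CR1.

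Library totals ran from 24778469 to 26373960 counts in the controls and from 20044602 to 21670135 in the knockdown libraries. ENO1 was at 3.13% of its control level in the knockdown libraries. Within its group, control replicate 2 differed most from the others, and so did knockdown replicate 3. Markers of the myeloid line summed to between 1644 and 1665 CPM (counts scaled to a common library size) in the controls and between 1689 and 1742 CPM in the knockdown libraries, with FLT3 at the highest level, and of the 7 tested of these 8 markers 4 were higher and 3 lower. T cell markers (3 of 5, without CD3D and TRAC, which were not analysed here) summed to 0 in each control library and to at most 0.279 CPM in a knockdown library, and the 1 erythroid marker analysed of 5, ALAS2, reached at most 0.136 CPM. B cell markers (5 of 5) summed to between 3.94 and 5.04 CPM in the controls and between 6.31 and 7.16 CPM with the knockdown. Megakaryocyte markers (4 of 5) summed to between 5.55 and 7.71 CPM in the controls and between 11.9 and 15.05 CPM with the knockdown. Markers of fibroblasts and endothelium (5 of 6) summed to between 94.2 and 95.2 CPM in the controls and between 66.0 and 68.9 CPM with the knockdown, nearly all of it PECAM1, which myeloid cells also express. The part of these shifts in the results below was not tested.

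Of the 37 members, 18 had enough counts to be tested, 10 ligands and 8 receptors. The filter on low counts needed about 10 counts in 3 libraries. With the knockdown, 11 of the tested members were higher and 4 lower, and 3 had no call (quasi-likelihood test of edgeR, adjusted p threshold 0.05). Over all 14635 genes tested, 29.4% were called higher and 30.5% lower, 59.9% in all. Differences of at least 2-fold were called for 9 of the 18 members, against 10.1% of all genes tested. The groups did not overlap for 14 of the 18 members, against 64.3% of all genes tested. The median log2 fold change was 0.64 over the 18 members and 0.00 over all genes. These counts are a description, because CXCL10 and CCL4 passed the filter only through the knockdown libraries and had to be higher there. CCL3 had 2 control and 3 knockdown libraries over the cutoff of the filter, so the controls alone would not have carried it. With control replicate 2 and knockdown replicate 3 set aside together, a check added after the data were seen, 12 members were higher and 3 lower.

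**Figure D1:**
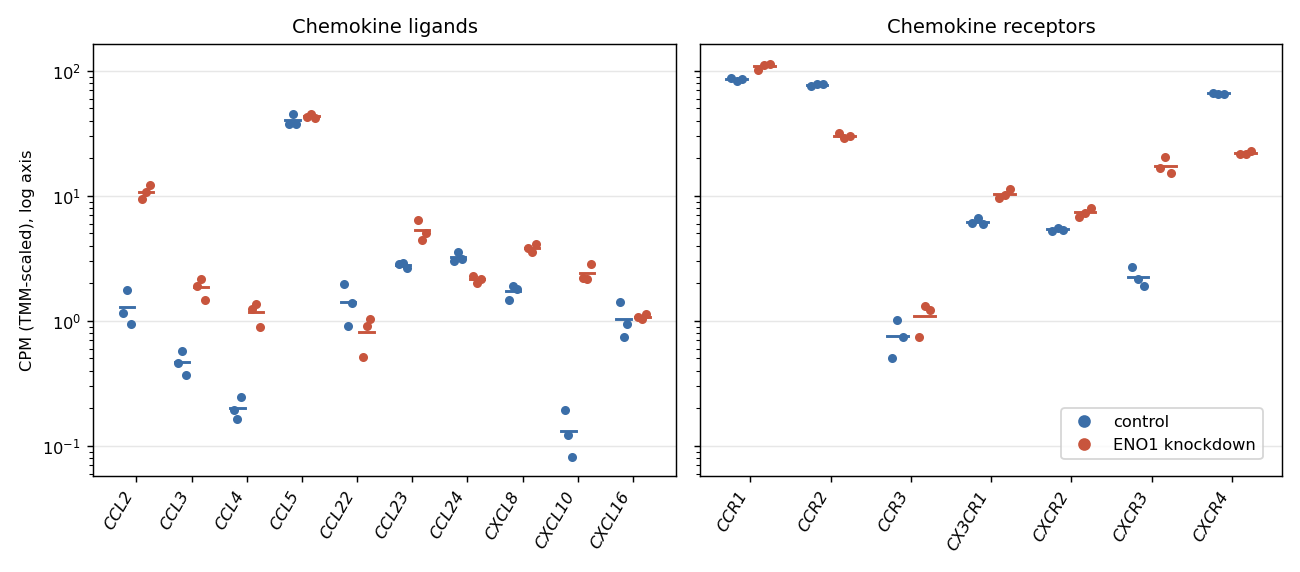
Normalised level of 17 tested chemokine ligands (left) and receptors (right) in each library, in CPM on a log axis, with a point per library and a bar at the group mean; values are to be compared within a gene, since they are not divided by gene length. The knockdown points lie above all control points for 10 of these genes, among them CCL2, CXCL10 and CXCR3, and below all of them for CCL24, CCR2 and CXCR4.

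Sequences upstream of 3 members are shown because these were the called members with a kappa-B like match, and they moved in different directions. They were taken from RefSeq on GRCh38.p14 and run 5′ to 3′ on the strand of the gene, ending before the first annotated start of its transcripts. Capitals mark matches to a kappa-B like motif, GGAANNNCC, or to an interferon response element like motif, GAAANNGAA, each searched on both strands. CXCL10 (chr4:76023498-76023747, minus strand) and CXCL8 (chr4:73740319-73740505, plus strand) were higher in the knockdown cells, and CXCR4 (chr2:136118166-136118399, minus strand) was lower.
CXCL10: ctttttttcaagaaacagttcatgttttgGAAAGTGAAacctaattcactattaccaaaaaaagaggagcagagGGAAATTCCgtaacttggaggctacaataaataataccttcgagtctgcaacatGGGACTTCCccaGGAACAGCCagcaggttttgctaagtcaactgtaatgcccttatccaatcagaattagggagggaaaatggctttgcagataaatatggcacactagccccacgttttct
CXCL8: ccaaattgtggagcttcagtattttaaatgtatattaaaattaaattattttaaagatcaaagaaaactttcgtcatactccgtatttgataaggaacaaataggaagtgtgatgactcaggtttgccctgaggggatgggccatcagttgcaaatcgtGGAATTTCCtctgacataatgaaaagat
CXCR4: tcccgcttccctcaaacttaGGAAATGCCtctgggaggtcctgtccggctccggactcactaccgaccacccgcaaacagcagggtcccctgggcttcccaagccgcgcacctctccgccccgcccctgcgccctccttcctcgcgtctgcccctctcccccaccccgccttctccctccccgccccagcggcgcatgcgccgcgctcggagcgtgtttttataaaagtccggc

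In the CXCL10 sequence the interferon response element like match lay at -221 to -213 from the RefSeq start, and kappa-B like matches lay at -176, -122 and -110. The CXCL8 sequence held 1 kappa-B like match at -91 to -83 and an AP-1 like match, TGANTCA, at -137 to -131. The single match in the CXCR4 sequence lay at -230. Promoter windows of 300 bases were found for 27 of the 37 members, 39 windows in all. A kappa-B like match was present in 8 of the 39 (20.5%) and in 20.1% of the 35116 RefSeq windows of the same length. Interferon response element like matches were present in 10 of the 39 (25.6%) and in 8.11% of all windows. By gene, that motif was found for 3 of the 8 members with a window that were higher (CCL3, CXCL10 and CXCR2), for 1 of the 4 that were lower (CCR2), for CCR3, which had no call, and for 4 of the 14 that were not tested. A GAS like motif, TTCNNNGAA, was in 8 of the 39 windows against 7.66% of all, and the AP-1 like motif in 8 against 7.71%. Several members have windows that overlap each other, so the 39 are not independent. A match is a description of letters and does not show that a factor binds.

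The ligand of CXCR3 that is best known as an interferon-induced gene, CXCL10 (ENSG00000169245, GRCh38 chr4:76021117-76023497, minus strand), had the highest log2 fold change of the tested members. It had 5, 3 and 2 counts in the control libraries, and with the knockdown 47, 48 and 58. The groups did not overlap, and every control library was close to undetected. In normalised terms CXCL10 rose from 0.133 ± 0.0560 to 2.41 ± 0.387 CPM (SD, n = 3), and the log2 fold change was 4.11 (approximate SE 0.39, edgeR adjusted p = 7.57e-10). From the summed counts the ratio was 17.9 (95% exact interval 9.47 to 38.1, counting error only). The other ligands of CXCR3 lie beside CXCL10 on chromosome 4. CXCL11, 10184 bases away, had 0, 2 and 2 counts in the controls and 3 in each knockdown library. CXCL9, 13628 bases away on the other side, had 0 counts in every control library and 4, 0 and 0 with the knockdown. Both stayed under the filter on low counts, and a difference in them was not detectable at this depth.

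CCL2, the chief attractant of monocytes (ENSG00000108691, GRCh38 chr17:34255218-34257203, plus strand), had counts of 30, 43 and 23 in the controls and 202, 238 and 247 with the knockdown. Its level rose from 1.29 ± 0.425 to 10.8 ± 1.38 CPM (SD, n = 3), and the lowest knockdown library was at 9.39 CPM against 1.76 CPM in the highest control. The log2 fold change was 3.06 (approximate SE 0.18, edgeR adjusted p = 2.12e-14). CCL7, another ligand of CCR2 that lies 13017 bases from CCL2, had a single count over the controls and 6 over the knockdown libraries. It was not tested, and the ratio of 7.01 had a 95% exact interval of 0.85 to 323.

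CCL3 and CCL4, the macrophage inflammatory proteins, lie 13420 bases apart on chromosome 17 and both rose. CCL3 had counts of 12, 14 and 9 in the controls and 41, 48 and 30 with the knockdown, and CCL4 had 5, 4 and 6 and then 27, 30 and 18. In both genes the lowest knockdown library was above the highest control. Their log2 fold changes were 1.97 ± 0.33 for CCL3 (edgeR adjusted p = 8.17e-06) and 2.51 ± 0.42 for CCL4 (edgeR adjusted p = 1.12e-05), where the error is the approximate standard error. Assignment of reads is uncertain here. Of the 50-base stretches of CCL4 transcripts, 10.1% also occur in the near-identical copy CCL4L2, and 4.93% of those of CCL3 occur in near-identical copies of CCL3. The copies in the table had few counts, 5, 5 and 7 against 2, 3 and 0 for CCL3L3 and 1, 0 and 0 against 0, 1 and 0 for CCL4L2. An antisense gene, CCL3-AS1, covers 1115 bases of the exons of CCL3 and was listed with at most 1 count in a library. The strand setting of the counting is not given in the sources used here.

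CXCL8, the neutrophil attractant read by CXCR1 and CXCR2 (ENSG00000169429, GRCh38 chr4:73740506-73743716, plus strand), had 38, 46 and 44 counts in the controls and 82, 78 and 84 with the knockdown. It rose from 1.72 ± 0.223 to 3.83 ± 0.296 CPM (SD, n = 3), and the log2 fold change was 1.15 (edgeR adjusted p = 1.11e-05). The other ligand of CXCR2 with counts, CXCL2, went the other way at a very low level, with 5, 3 and 4 counts in the controls and 0, 1 and 0 with the knockdown. CXCL2 was under the filter, and its ratio of 0.0974 had a 95% exact interval of 0.00228 to 0.6585 for counting error alone. A fit with no filter gave it an edgeR adjusted p of 0.0902. Reads of CXCL2 are uncertain, since 12.5% of its 50-base stretches occur in CXCL3 or CXCL1. CCL23, a myeloid ligand of CCR1, was at 2.85, 2.91 and 2.63 CPM in the controls and at 6.46, 4.402 and 5.02 CPM with the knockdown. The knockdown libraries of CCL23 were spread more widely than the controls but lay above all of them, and the log2 fold change was 0.92 (edgeR adjusted p = 3.45e-05). Of its 50-base stretches 6.44% occur in CCL15, so the assignment of its reads is uncertain as well.

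CCL5, which binds CCR1 and CCR3, held the most ligand reads and showed no call. It was at 37.8, 45.0 and 37.6 CPM in the controls and 42.8, 45.2 and 41.7 CPM with the knockdown. Control replicate 2 lay among the knockdown libraries and the other controls below them. The log2 fold change was 0.11 (approximate SE 0.06, edgeR adjusted p = 0.150). Without control replicate 2 it was 0.20 and passed (edgeR adjusted p = 0.00950). Of the 50-base stretches of CCL5 13.9% occur in other genes, so its level is uncertain. CXCL16, a membrane-bound ligand of CXCR6, was at 1.43, 0.738 and 0.944 CPM in the controls and 1.07, 1.04 and 1.13 CPM with the knockdown. Its knockdown libraries lay within the range of the controls, with a log2 fold change of 0.05 ± 0.32 (approximate SE; edgeR adjusted p = 0.896).

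Ligands with a lower level were CCL24, an eosinophil attractant that acts on CCR3, and CCL22, which attracts T cells through CCR4. CCL24 was at 3.01, 3.53 and 3.12 CPM in the controls and 2.28, 2.00 and 2.16 CPM with the knockdown. These groups did not overlap, and the log2 fold change was -0.58 (edgeR adjusted p = 0.0102). The call was lost when the 2 libraries that stood apart were set aside (edgeR adjusted p = 0.0684). CCL22 was at 1.97, 0.902 and 1.40 CPM in the controls and 0.511, 0.908 and 1.03 CPM with the knockdown. Its groups overlapped, and the log2 fold change of -0.80 passed narrowly (edgeR adjusted p = 0.0451). Leaving out control replicate 1 or 3 or knockdown replicate 1 or 2 ended that call, with edgeR adjusted p of 0.294, 0.0841, 0.193 and 0.0618 in that order, and the log2 fold change was -0.50 without control replicate 1 and -0.56 without knockdown replicate 1.

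CXCR4 (ENSG00000121966, GRCh38 chr2:136114349-136118165, minus strand), which holds leukaemic cells in the marrow through CXCL12, had the lowest log2 fold change of the tested members. It was at 67.0, 65.8 and 65.4 CPM in the controls and 21.5, 21.8 and 22.8 CPM with the knockdown. Both groups were tight and far apart. The mean level was 66.1 ± 0.820 CPM in the controls and 22.0 ± 0.659 CPM with the knockdown (SD, n = 3), and the log2 fold change was -1.59 (approximate SE 0.05, edgeR adjusted p = 1.82e-19). ACKR3, the atypical scavenger receptor that also binds CXCL12, had 2, 3 and 2 counts in the controls and 6, 1 and 1 with the knockdown and was not tested.

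CCR2 (ENSG00000121807, GRCh38 chr3:46353734-46360928, plus strand), the receptor by which monocytes respond to CCL2, also fell. Its level was 76.1, 78.4 and 78.6 CPM in the controls and 31.8, 29.2 and 29.9 CPM with the knockdown, a log2 fold change of -1.36 (approximate SE 0.05, edgeR adjusted p = 1.57e-18). Its ligand CCL2 rose in the same libraries.

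CXCR3 (ENSG00000186810, GRCh38 chrX:71615916-71618517, minus strand), the receptor for CXCL9, CXCL10 and CXCL11, had the highest log2 fold change among the tested receptors. It was at 2.70, 2.17 and 1.89 CPM in the controls and 16.6, 20.3 and 15.1 CPM with the knockdown. The lowest knockdown library was several times above the highest control. The mean rose from 2.25 ± 0.412 to 17.4 ± 2.69 CPM (SD, n = 3), and the log2 fold change was 2.94 (approximate SE 0.14, edgeR adjusted p = 5.74e-16). This receptor and its ligand CXCL10 were both higher, whereas CCR2 and CCL2 moved in opposite directions.

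CX3CR1, CXCR2 and CCR1 rose by less than 2-fold. CX3CR1, the fractalkine receptor of monocytes, was at 6.02, 6.68 and 5.95 CPM in the controls and 9.57, 10.2 and 11.3 CPM with the knockdown, a log2 fold change of 0.73 (edgeR adjusted p = 2.62e-06). CXCR2, a receptor for CXCL8, was at 5.24, 5.54 and 5.38 CPM and then 6.83, 7.31 and 8.02 CPM, a log2 fold change of 0.45 (edgeR adjusted p = 0.00244), and 6.29% of its 50-base stretches occur in CXCR1 or the pseudogene CXCR2P1. CCR1, which reads CCL3, CCL5 and CCL23, was at 87.1, 82.2 and 86.6 CPM in the controls and 102.1, 110.7 and 114.2 CPM with the knockdown. In these genes no knockdown library reached down to a control, although the CCR1 rise was the smallest of the called members, at a log2 fold change of 0.35 (edgeR adjusted p = 8.46e-08). The eotaxin receptor CCR3 had overlapping groups, at 0.501, 1.03 and 0.739 CPM and then 0.744, 1.32 and 1.23 CPM, and no call (log2 fold change 0.54, edgeR adjusted p = 0.190).

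**Figure D2:**
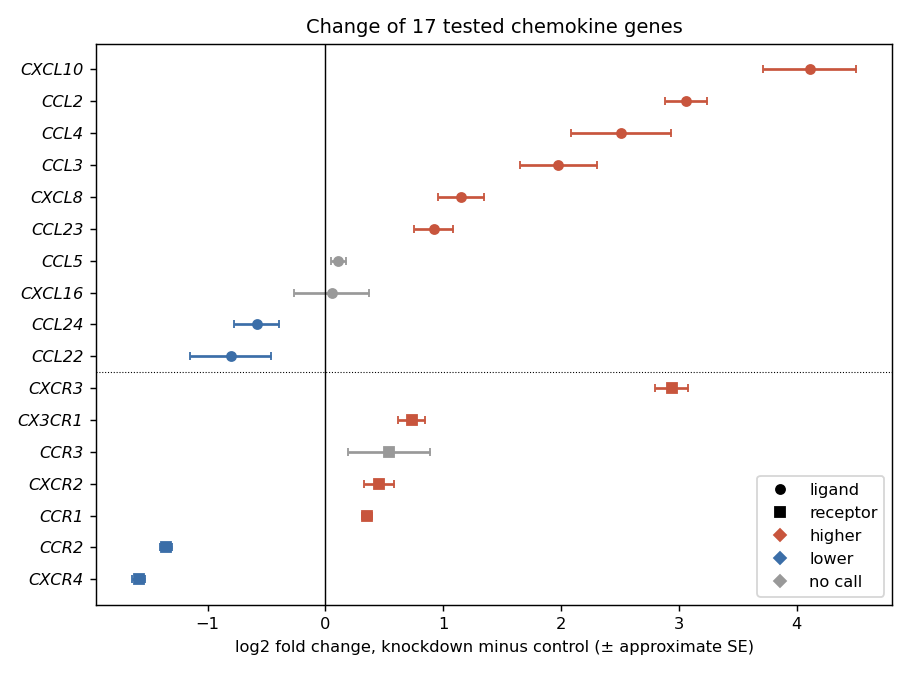
Log2 fold change of the same 17 tested members, knockdown minus control, with bars of 1 approximate standard error from the edgeR fit; circles are ligands, squares are receptors, and colour gives the call. CXCL10 (4.11), CCL2 (3.06) and CXCR3 (2.94) lie farthest to the right, and CXCR4 (-1.59) and CCR2 (-1.36) farthest to the left.

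For levels to be compared between genes, CPM was divided by the length in kb of all annotated exons of a gene joined together. This length can exceed that of the transcript in the cells, so orders, shares and sums between genes depend on it. Among receptors in the controls, CCR1 stood at 31.2 ± 0.976 CPM per kb and CXCR4 at 29.7 ± 0.369 (SD, n = 3), and their ranges overlapped. CCR2 followed at 20.8 ± 0.378 CPM per kb (SD, n = 3), clear of both. CX3CR1, CXCR2, CXCR3 and CCR3 came after in that order, from 1.70 down to 0.212 CPM per kb, with CX3CR1 and CXCR2 overlapping. In the knockdown cells CCR1 stood alone at 39.9 ± 2.28 CPM per kb. Behind it CXCR4 at 9.90 ± 0.296, CXCR3 at 9.29 ± 1.44 and CCR2 at 8.12 ± 0.364 CPM per kb (SD, n = 3) overlapped with their neighbours in the order. The share of CXCR4 in the summed receptor level went from 33.4 ± 0.326% to 12.7 ± 0.342%, that of CCR2 from 23.4 ± 0.566% to 10.4 ± 0.845% and that of CCR1 from 35.1 ± 0.856% to 51.1 ± 1.29% (SD, n = 3). CXCR3 went from 1.36 ± 0.242% to 11.9 ± 1.76% of that sum (SD, n = 3). The summed receptor level itself was 88.9 ± 0.660 CPM per kb in the controls and 78.1 ± 2.77 with the knockdown (SD, n = 3).

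Ligand transcripts were dominated by CCL5, at 26.5 ± 2.78 CPM per kb in the controls and 28.6 ± 1.18 with the knockdown (SD, n = 3). It made up 68.1 ± 1.27% of the summed ligand level in the controls and 55.2 ± 2.41% with the knockdown (SD, n = 3). CCL24 and CCL23 followed in the controls at 5.21 and 3.79 CPM per kb, each clear of the next. In the knockdown cells the order behind CCL5 was CCL23 at 7.17, CCL2 at 5.43, CCL24 at 3.48 and CXCL10 at 2.05 CPM per kb, of which CCL23 and CCL2 overlapped. The joined exons of CCL2 cover the gene from end to end, 1986 bases, against 738 for CCL23 and 617 for CCL24. A shorter length for CCL2 would raise its place and its share, and other lengths were not tried. CCL2 went from 1.64 ± 0.393% to 10.5 ± 1.504% of the ligand sum and CXCL10 from 0.291 ± 0.131% to 3.96 ± 0.687% (SD, n = 3). The ligand sum was 38.9 ± 3.42 CPM per kb in the controls and 51.8 ± 0.845 with the knockdown (SD, n = 3). In such bulk samples a change in the number of cells that express a gene cannot be told apart from a change in RNA per cell.

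**Figure D3:**
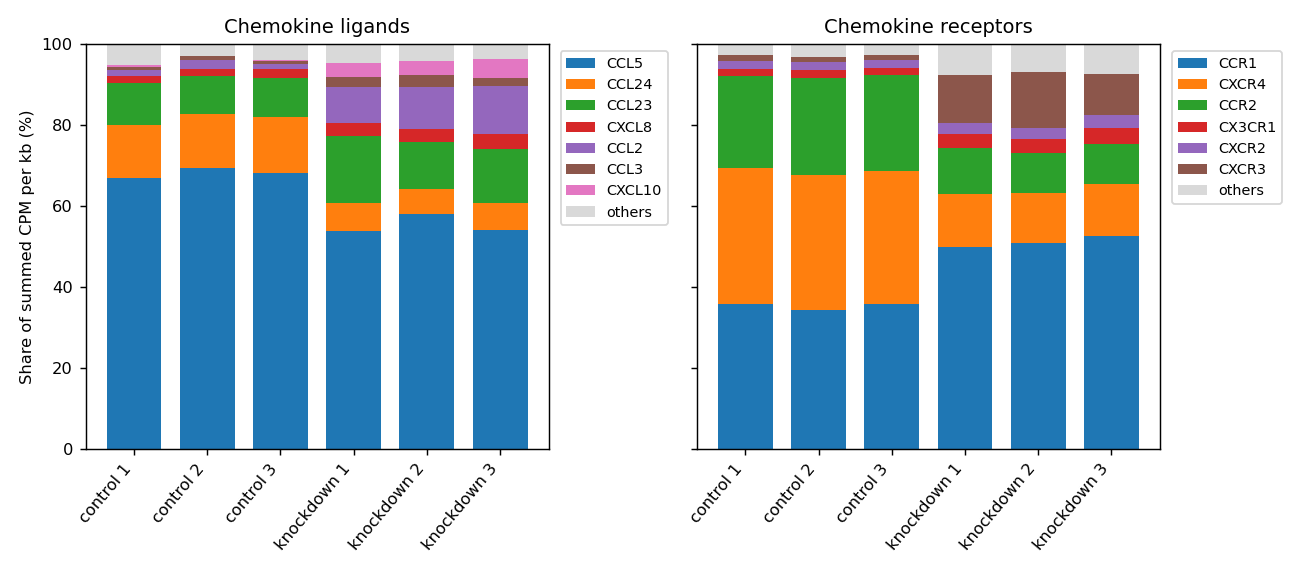
Share of each gene in the summed CPM per kb of all chemokine ligands (left) or receptors (right), in percent, with a stacked bar per library; members that reach 2% in no library, and 1 receptor not reported singly, are pooled in grey. The CXCR4 and CCR2 segments of the 3 knockdown libraries are shorter than in the controls, at 12.7% and 10.4% on average, and that of CXCR3 is taller, at 11.9%.

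The 19 members under the filter held between 2 and 45 counts over all 6 libraries. In a fit with no filter, none of them passed (lowest edgeR adjusted p = 0.0692, for CCL25), and none passed in DESeq2 where it gave an adjusted p. Of these members 11 held at least 10 counts. The receptor CXCR6 had 7, 7 and 4 counts in the controls and 4, 7 and 16 with the knockdown, and the skin-homing receptor CCR10, which shares 820 exon bases with genes on the other strand, had 4, 0 and 10 and then 7, 14 and 5. The lymph node homing receptor CCR7 had 7, 3 and 4 counts and then 4, 1 and 3. These overlapped between the groups. The gut-homing receptor CCR9 had 2, 6 and 1 counts and then 6, 2 and 3, while its ligand CCL25 had 3, 2 and 0 and then 13, 6 and 0. CCL18, a macrophage product, had 1, 4 and 0 counts and then 3, 6 and 3. CCR6 had 1, 2 and 2 counts and then 6, 2 and 2, and 68.2% of its 50-base stretches occur in other genes. The remaining 8 members held fewer than 10 counts each, and among them CXCR1 had 1 count over the controls and 8 over the knockdown libraries, 7 of those in replicate 3. CCL20 held 9 counts in all, CCL26 and CXCL17 7 each, and XCL1 had 3, which were all in knockdown replicate 3.

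Relatives of the family that the rule left out were counted from a separate list. Of 12 such genes, 5 were tested, 3 were higher and 2 lower. Beside this list and those below, 29.4% of all genes tested were higher and 30.5% lower. CCRL2, an atypical receptor that binds chemerin, was at 2.82, 2.62 and 2.05 CPM in the controls and 3.63, 4.45 and 4.23 CPM with the knockdown (log2 fold change 0.71, edgeR adjusted p = 0.00119). The chemokine-like factor family members CMTM3, CMTM6 and CMTM7, membrane proteins named for their likeness to a chemokine, had log2 fold changes of 0.53, -0.39 and -1.04 (largest edgeR adjusted p = 1.43e-07).

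In a list of CXCR3 ligands and their regulators, which includes CXCL10, 6 of 7 tested genes were higher and 1 was lower. STAT2 and IRF9, which carry the interferon signal to the nucleus, had log2 fold changes of 0.95 and 1.59. The one that fell, IRF8, a factor of monocyte development, had a log2 fold change of -0.63. Of 11 genes for NF-kB subunits and feedback, 9 were higher and 2 lower, with a median log2 fold change of 0.28. Over all genes tested 29.4% were higher and 30.5% lower, with a median of 0.00. The feedback genes TNFAIP3 and BCL3 rose by 1.22 and 0.83 and the subunit REL by 0.94 on the log2 scale, while the inhibitor NFKBIB fell by 0.35. Transcription factors known from the control of CXCR4 and monocyte chemokines went both ways, with 4 of 17 higher and 7 lower. The 11 called of these 17 were near the share of 59.9% called over all genes tested. EPAS1, a hypoxia-inducible factor subunit, had a log2 fold change of 2.50, whereas MYC, CEBPB and CEBPA were at -0.86, -1.26 and -0.62. The largest edgeR adjusted p among the genes named here was 1.68e-06.

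Downstream of the receptors, genes of cell migration and genes of receptor coupling and shut-off both moved in each direction. Of 20 migration genes 12 were higher and 5 lower, with a median log2 fold change of 0.33. Over all genes tested 29.4% were higher and 30.5% lower. The phospholipase PLCB2 and the small GTPase RAC1 rose by 0.67 and 0.63 on the log2 scale, the kinase PTK2B by 0.42 and the Rac activator PREX1 by 0.40. These were named for the smallest adjusted p in the list, and the 5 that were lower, other genes of Rac signalling among them, are not named under that rule. Of 19 tested genes for G proteins, receptor kinases, arrestins and RGS proteins 7 were higher and 10 lower, with a median of -0.16. GRK6, a kinase that desensitises chemokine receptors, was lower at 68.8 ± 1.06 CPM with the knockdown against 143.1 ± 3.15 CPM in the controls (SD, n = 3). For the arrestin ARRB2 and the G protein subunit GNB1 the log2 fold changes were -0.53 and -0.31. The gamma subunit GNG2 rose by 2.34 on the log2 scale. Whether these lists differ from each other was not tested.

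Genes whose products trim or hold chemokines were mostly lower, 10 of 16 against 2 higher, with a median log2 fold change of -0.68. Over all genes tested 30.5% were lower and 29.4% higher. SRGN, the granule proteoglycan serglycin, fell from 1603 ± 37.2 to 687 ± 18.3 CPM (SD, n = 3). The proteases CTSG and MMP2 and the heparan sulphate enzyme NDST1 had log2 fold changes of -1.32, -0.72 and -0.82. CTSG is also a granule gene of immature myeloid cells, as are other lower proteases of this list that the rule of smallest adjusted p leaves unnamed. Whether that bears on the fall of these genes was not tested. Other chemoattractant receptors gave 2 higher, 1 lower and 5 with no call among 8 tested. The oxysterol receptor GPR183 rose by 2.65 and the chemerin receptor CMKLR1 by 3.05 on the log2 scale, the latter from 2, 3 and 2 counts in the controls to 13, 18 and 21. CMKLR1 and CXCL10, both counted as higher, passed the filter on low counts only through the knockdown libraries. CKLF had 6, 6 and 24 counts in the controls and RGS2 had 13, 17 and 6. For CKLF and RGS2 some control libraries met the filter, though too few to pass alone. The places of these genes in the counts are therefore a description. CKLF and RGS2 are named here after their values were seen. The leukotriene receptor LTB4R fell by 0.45 (edgeR adjusted p = 3.88e-08), and its relative LTB4R2 had a log2 fold change of -0.26 with no call (edgeR adjusted p = 0.0557).

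**Figure D4:**
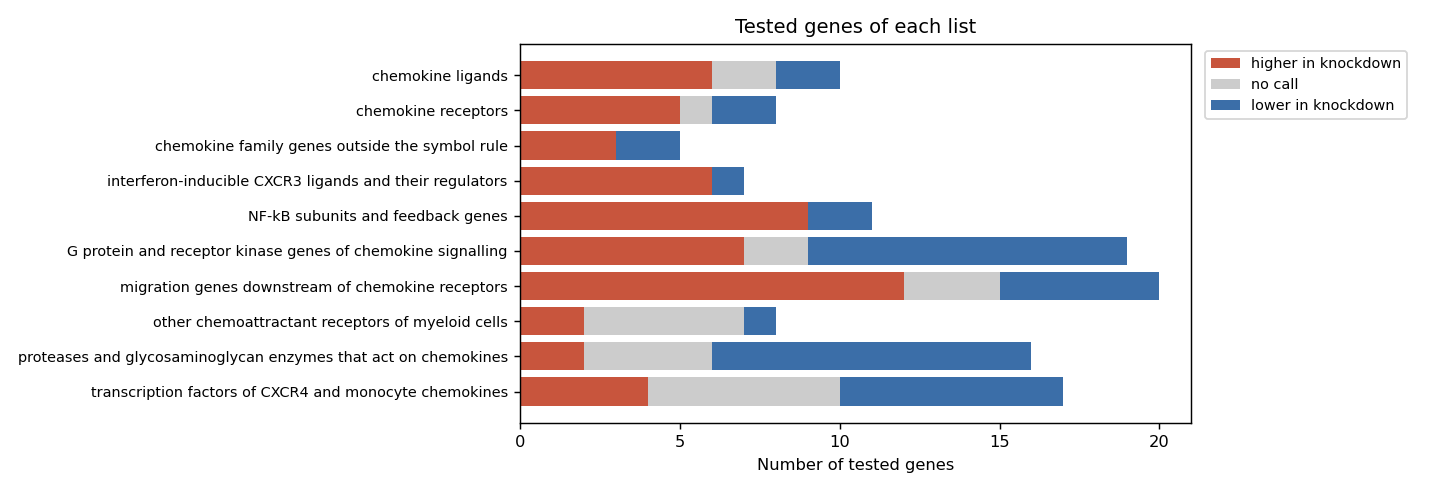
Number of tested genes that were higher, lower or had no call in the knockdown cells, for chemokine ligands, chemokine receptors and 8 lists of related genes. Red segments are longest for migration genes (12 of 20) and blue segments for proteases and glycosaminoglycan enzymes and for G protein and receptor kinase genes (10 each), where 29.4% of all genes tested were higher and 30.5% lower.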

How the data were processed

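RNA was sequenced from 3 control and 3 ENO1 knockdown libraries, made from total RNA with a TruSeq kit per the labels' protocols. The submitters' processing notes name HISAT2 2.0.5 and hg38. Which counter, annotation and strand setting were used is not given in the sources used here. Raw read counts per Ensembl gene were deposited by the authors, 1 column per library, per the file headers. Columns were matched to samples by group and replicate number.

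Symbols, exon lengths and positions came from the reference names and GENCODE 29 (GRCh38). Counts were fitted over the whole table with edgeR 4.0.16 in R 4.3.3 (TMM factors, filterByExpr, robust glmQLFit and glmQLFTest, two-sided, Benjamini-Hochberg over 14635 genes, threshold 0.05), and the procedure was tested on simulated data. CPM uses library sizes scaled by TMM. The standard error (SE) is approximate, the log2 fold change over the root of the F statistic. Intervals on ratios of summed counts are exact (conditional binomial), at 95%, and cover counting error only.

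Of each list up to 4 genes with the smallest adjusted p are named. Members and lists were chosen with earlier results of these data known. Alternatives were RLE, upper-quartile and no scaling factors, other filters, DESeq2 1.42.0, limma-voom (limma 3.58.1), a replicate block, a threshold of 0.01 and each library left out. Protein sequences were not used here. Values of 1 tested receptor and of 1 listed gene are not reported here, and both remain in the counts, medians and sums.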

Additional observations from a re-analysis of the deposited data

How the results depend on the processing

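Of 18 tested members, 15 kept their call under every alternative that gave a value. None reversed with a call on either side, and CXCL16, which had no call, changed sign in some settings. The exceptions were CCL22, CCL24 and CCL5. The count of ligands called lower, 2 as reported, was 1 with upper-quartile factors, with library totals alone, in limma-voom, with the replicate block and with both libraries that stood apart set aside. It was 0 in DESeq2, 0 at a threshold of 0.01 and 0 with genes under 5 CPM removed, where 1 ligand was called higher because the filter removed most ligands. Leaving out each library in turn gave between 1 and 2. CCL24 had an adjusted p of 0.0551 in DESeq2, and CCL5 passed with upper-quartile factors (edgeR adjusted p = 0.0492) and library totals alone (0.0292). The 13 calls lost over members and alternatives were all of CCL22 and CCL24.

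Same-numbered libraries did not deviate together, with correlations of their deviations from the group means across genes of 0.00289, 0.00917 and -0.0225. With 3 libraries per group this check cannot exclude a pairing, and the labels state none. Not every library correlated best with its own number. With the replicate block 4165 genes were higher and 4325 lower, against 4309 and 4458 without it.

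None of the 19 members under the filter on low counts was called in a fit with no filter, and differences in them were not detectable at this depth.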
